A study of Mus musculus with 11 samples.

Results

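The cortical collecting duct of the E15.5 mouse kidney was measured on 2 of the 11 arrays of the study, both labelled with that compartment, and all named genes read by 1 probe set each are described here. The other 9 arrays were 3 of urothelium, the lining of the ureter (labelled URO in the plots), 3 of the early proximal tubule (EPT) and 3 of smooth muscle of the ureter (USM). Every group, collecting duct (CCD) included, came from untreated wild-type CD-1 mice, an outbred stock, at Theiler stage 23. Each array carried RNA of 1 pool of approximately 50 laser-captured sections from 5 kidneys, amplified in 2 rounds, so no array represents a single animal. The sex of the fetuses, the landmarks used to cut the duct and any sharing of kidneys between pools are not stated in the sources used here. The spread that the p-values measure is thus that between pools, which may be technical, and the precision is limited by the number of arrays.

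The collecting duct grows from the ureteric bud, a branching epithelial tube that invades the kidney mesenchyme. Its tips receive GDNF through the receptor Ret and its co-receptor Gfra1, and its stalks secrete signals such as Wnt9b that induce nephrons in the mesenchyme around them. The stalks mature into collecting ducts, where principal cells take up water and sodium under the control of vasopressin and aldosterone, and intercalated cells move acid and base. The urothelium and the collecting duct are both epithelia of the urinary tract that share many epithelial genes.

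Both duct arrays were scaled by the authors to the same trimmed mean signal of 1500, with median signals of 401 and 247 in replicates 1 and 2. For the Gapdh control, the ratio of 3' to 5' signal was 12.3 in replicate 1 and 25.9 in replicate 2, and for actin it was 6.19 and 13.4. The actin 3' control itself read 56583 and 9978. Replicate 2 correlated with replicate 1 at r = 0.905 across the 13614 genes tested, and at r = 0.909 with replicate 3 of urothelium, so its nearest array was one of another compartment. These correlations are across genes, which are not independent replicates. A date-like part of the labels, of unstated meaning, splits the arrays into 4 label batches. Duct replicate 1 shares its batch with replicate 1 of proximal tubule and replicate 2 of smooth muscle, duct replicate 2 with replicates 2 and 3 of proximal tubule, and no duct array shares a batch with urothelium.

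The label was checked first against 4 genes given as markers of this compartment, and all 4 were high in both duct arrays and highest there. All levels are log2(signal + 55), in which a difference of 1 is close to a doubling of bright signals and understates the change of dim ones, and arrays are given in the order of their replicate numbers. Elf5, an epithelial transcription factor of the ETS family, read 14.26 and 14.13 in the duct. It read 7.76, 9.90 and 8.54 in proximal tubule, 7.10, 6.98 and 6.01 in muscle and 10.49, 9.06 and 11.91 in urothelium. The duct arrays thus lay above all 9 others, with urothelium replicate 3 the nearest. Fxyd4, a regulator of the sodium pump, read 15.01 and 14.17 in the duct, 9.60, 10.55 and 9.70 in proximal tubule, 9.12, 8.67 and 8.62 in muscle and 11.51, 11.37 and 12.80 in urothelium. Aldh1a3, an enzyme that makes retinoic acid, read 13.43 and 14.07 against 6.55, 7.34 and 5.92 in proximal tubule, 7.66, 6.79 and 6.0 in muscle and 9.57, 8.24 and 10.45 in urothelium. Both genes again separated the duct from every other array. The tight junction protein Cldn8 was less particular to the duct, at 14.04 and 14.63 against 13.11, 13.48 and 13.51 in urothelium, 5.89, 8.80 and 6.10 in proximal tubule and 8.66, 8.14 and 9.34 in muscle. The summed linear signal of the 4 markers was 78485 to 80177 in the duct, 13732 to 23797 in urothelium, 924 to 2840 in proximal tubule and 705 to 1078 in muscle. In bulk tissue, fewer cells of a type and less RNA per cell cannot be told apart.

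**Figure D1:**
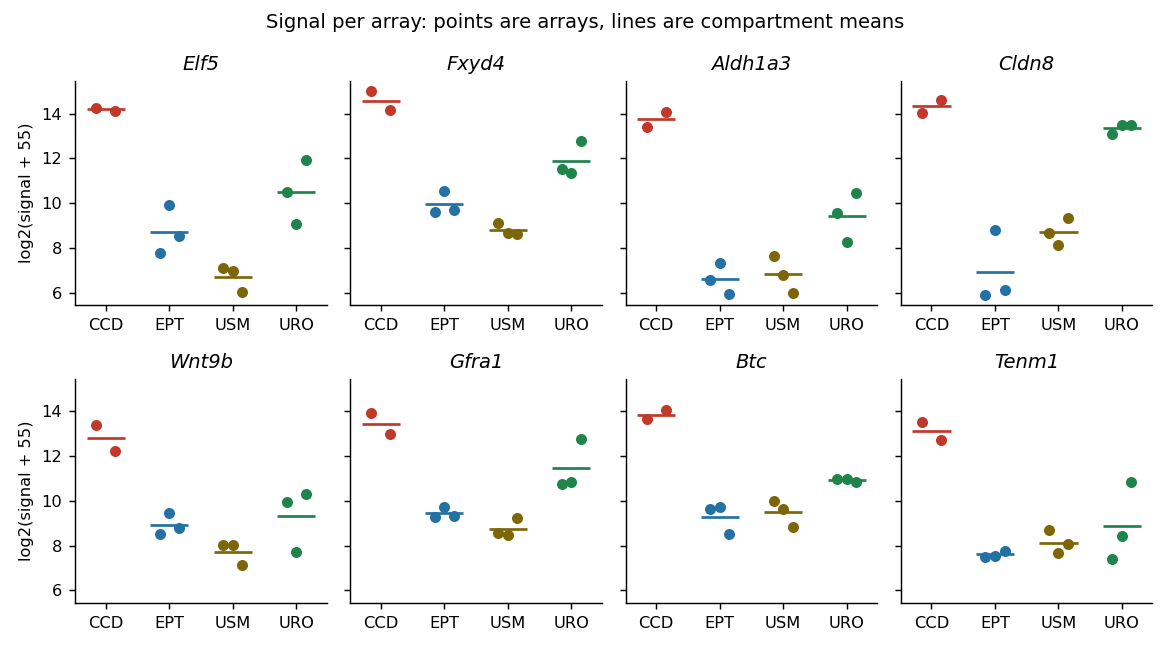
Levels of 8 genes on every array, as log2(signal + 55) on the vertical axis, by compartment (CCD, cortical collecting duct; EPT, early proximal tubule; USM, ureteral smooth muscle; URO, urothelium). Points are single arrays and lines are compartment means. In all 8 panels both duct points lie above the other 9. The closest single array is urothelium replicate 3 for Gfra1, at 12.79 against 13.003 in the lower duct array. The closest compartment mean is that of urothelium for Cldn8, whose arrays read 13.11 to 13.51 against 14.04 and 14.63.

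The promoters of Fxyd4 and Elf5 are shown because both genes are markers of the duct. The ETS factors Elf5 and Ehf and the AP-2 factor Tfap2a were also higher in it by the test described below. Elf3 and Tfap2b, of the same families, were tested and not called. The windows run from 250 bases before to 50 bases after the annotated start and are taken from RefSeq on the GRCm38.p6 build, with capitals marking motif matches on either strand. Fxyd4 lies on the minus strand at chr6:117937286-117937585, and Elf5 has 2 annotated starts on the plus strand, at chr2:103411848-103412147 and chr2:103423818-103424117.
Fxyd4: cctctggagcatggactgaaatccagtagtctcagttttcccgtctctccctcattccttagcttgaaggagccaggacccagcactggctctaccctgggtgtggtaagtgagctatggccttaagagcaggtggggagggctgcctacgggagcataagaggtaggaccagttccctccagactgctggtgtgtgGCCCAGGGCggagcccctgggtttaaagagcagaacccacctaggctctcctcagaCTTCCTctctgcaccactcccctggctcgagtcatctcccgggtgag
Elf5 start 1: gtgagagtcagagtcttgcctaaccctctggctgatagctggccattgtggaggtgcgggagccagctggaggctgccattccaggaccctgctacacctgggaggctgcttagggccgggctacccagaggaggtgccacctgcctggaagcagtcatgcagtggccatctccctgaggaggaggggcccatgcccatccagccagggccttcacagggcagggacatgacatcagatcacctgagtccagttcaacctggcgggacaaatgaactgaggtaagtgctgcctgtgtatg
Elf5 start 2: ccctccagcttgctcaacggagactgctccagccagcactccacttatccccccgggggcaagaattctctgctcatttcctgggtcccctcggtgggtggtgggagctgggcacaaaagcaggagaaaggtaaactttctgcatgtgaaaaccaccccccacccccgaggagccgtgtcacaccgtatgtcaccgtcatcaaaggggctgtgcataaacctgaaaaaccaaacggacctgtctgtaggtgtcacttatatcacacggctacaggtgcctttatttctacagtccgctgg
The letters searched were the ETS core AGGAAG, the GATA core AGATAA, the AP-2 core GCCNNNGGC and the grainyhead core AACNGGTT, where N is any base. Fxyd4 holds 1 AP-2 match, GCCCAGGGC, at -53 to -45, and 1 ETS match, read as CTTCCT on the strand shown, at 3 to 8, with the base that follows the 250 upstream bases counted as 0. The 2 matches do not overlap. Neither Elf5 window holds any of the 4 cores. The windows of Btc and Wnt9b, also searched, hold none either, so 1 of the 4 genes searched has a match. AGGAAG was found in 35.4% of all 32851 promoters, in 33.2% of the 13999 promoters of genes tested and in 35.4% of the 209 promoters of genes called higher in the duct by the test described below. In the same order the shares were 16.6%, 24.3% and 18.7% for GCCNNNGGC, 11.2%, 6.56% and 7.66% for AGATAA, and 2.09%, 1.9% and 2.87% for AACNGGTT. The called genes are a part of the genes tested. Beside the genes tested, their share was lower for GCCNNNGGC and higher for the other cores, and these differences were not tested.

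Markers of several cell types were summed and each set was compared across compartments. Sums of different sets rest on different probe sets and give no shares of cells. The 6 principal cell markers summed to 17476 to 24646 in linear signal in the duct, against 11592 to 13859 in urothelium, 2061 to 3026 in proximal tubule and 1887 to 4318 in muscle. The 6 intercalated cell markers summed to 2394 to 4350, against 1671 to 1920 in proximal tubule, 1131 to 1327 in muscle and 1164 to 1565 in urothelium, with Slc26a4 and Atp6v1b1 below the array median in both duct arrays. Markers of the ureteric bud and duct summed to 60255 to 62779, against 15338 to 30840 in urothelium, 1755 to 3312 in proximal tubule and 1489 to 1975 in muscle, although Hoxb7 read below the median in both. Tip markers gave 4190 to 8520, which overlaps the 3177 to 8474 of urothelium and lies above the 1507 to 3180 of proximal tubule and the 912 to 1620 of muscle, and Etv4 was below the median in both duct arrays.
Markers of neighbouring tissue were uneven between the 2 duct arrays. Stromal markers summed to 46672 and 89035, against 357704 to 477974 in muscle, 70649 to 135036 in urothelium and 37044 to 53701 in proximal tubule. Loop and distal tubule markers summed to 25972 and 54263, above the 20407 to 23862 of proximal tubule and the 645 to 3435 of muscle and overlapping the 12175 to 32786 of urothelium. The proximal tubule markers summed to 2957 and 6269, against 89825 to 122981 in proximal tubule itself, 2583 to 9377 in urothelium and 1054 to 1682 in muscle. In each of these 3 sets the higher sum was that of replicate 2, and the part of these signals in the results was not tested. Smooth muscle markers (3186 to 3299 against 222901 to 284593 in muscle) and urothelial markers (1529 to 2617 against 14935 to 60399) were low in both duct arrays. Endothelial markers summed to 2962 to 4589, within the 1153 to 6091 of urothelium. Leukocyte markers summed to 3387 to 8155, against 1832 to 6399 in proximal tubule, 1366 to 2042 in muscle and 1415 to 3878 in urothelium. Nephron progenitor markers gave 4158 to 9460, against 1328 to 9016, 585 to 819 and 1365 to 5181 in the same order. For both of these sets the highest sum was that of a duct array. Erythroid markers summed to 123 to 298, against 230 to 458, 267 to 831 and 717 to 1098.

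By absolute signal many of the genes that led in the duct also led in other compartments, so rank alone described it poorly. Genes were ranked within each compartment over 18193 named genes by mean level, and these ranks depend on the probes as well as on the transcripts. The 5 brightest in the duct were the elongation factor Eef1a1, the ribosomal protein Rps7, the respiratory chain subunit Uqcrb, Tpt1 and Pebp1. Of the duct's 100 brightest genes, 60 were also among the 100 brightest in proximal tubule, 58 in muscle and 66 in urothelium. All 4 compartments shared 45, and 21 were in the first 100 of the duct alone. Ribosomal proteins made up 14 of the 100.

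Epcam, an adhesion molecule of epithelia, was the brightest gene that also stood higher in the duct than in the mean of the other compartments. It ranked 46 in the duct, 232 in urothelium, 880 in proximal tubule and 6467 in muscle. Among the other genes called higher, Npnt ranked 112, the amino acid transporter Slc38a4 147, the sodium-calcium exchanger Slc8a1 151 and Nudt4 169. They were followed by the ephrin Efnb2 at 182, the chemokine receptor Ackr3 at 200, Rnf128 at 221, the kidney cadherin Cdh16 at 249 and Shh at 270, with Dcdc2a at 296 and Sgpp2 at 306. The 193 genes called higher had a median rank of 2357 in the duct, and 23 of them were in its first 500. Some were dim all the same: Lrrtm1 ranked 9397 and Atp12a 9070.

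Against the mean of the other compartments, each given equal weight, the lists of duct transcription factors and principal cell transport had the most members called higher and the list of smooth muscle the most called lower. The limma test called 278 of 13614 genes, 2.04% of those tested, at a Benjamini-Hochberg adjusted p under 0.05 and a log2 difference of at least 1. Of these, 193 were higher (1.42%) and 85 lower (0.624%). The median difference was 2.59 among the higher and -2.10 among the lower genes, by the rule that chose them, and -0.03 over all genes tested. For 124 of the 193 and 39 of the 85, both duct arrays lay beyond all 9 others on that side, which held for 2.73% of all genes tested on the higher side and 2.72% on the lower, 5.44% in all. Only Aldh1a3, Fxyd4, Mal2 and Btc were called both without duct replicate 1, when 9 genes were called in all, and without duct replicate 2, when 25 were. With label batch as a fixed block, 3 of the 278 genes were called (0.022% of those tested). These were the tetraspanin Tspan8 (5.39 ± 0.53, SE, adjusted p = 0.0191), Slc35g1 (4.66 ± 0.52, adjusted p = 0.0299) and Tmem30b (4.48 ± 0.55, adjusted p = 0.0475). The difference of Tspan8 was 3.70 without the block, and every urothelium array read above both duct arrays. Its difference from urothelium was -0.47 without and 2.54 with the block, although duct and urothelium share no label batch. The call of every other gene named in this comparison was therefore lost with the block, whose fit has 4 residual degrees of freedom against 7.

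**Figure D2:**
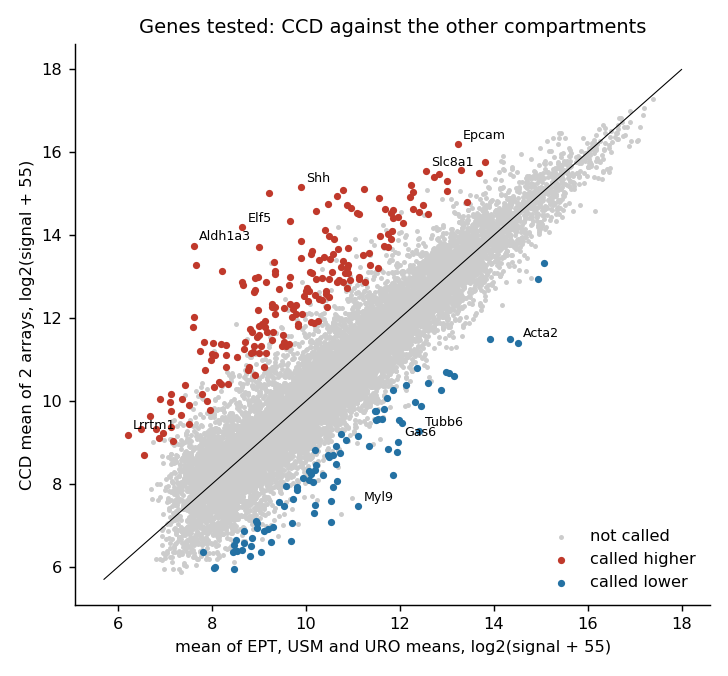
Mean level of each of the 13614 genes tested in the duct (vertical axis, 2 arrays) against the mean of the 3 other compartment means (horizontal axis), both as log2(signal + 55). Red points are the 193 genes called higher, blue points the 85 called lower, grey points the rest, and the line marks equal levels; Epcam is the brightest red point and Aldh1a3 lies farthest above the line.

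Of 27 tested transcription factors of the duct epithelium, 8 were called higher and 0 lower. The list's median difference was 1.51, beside -0.03 over all genes tested. This count and those of the lists below stand beside 1.42% called higher and 0.624% called lower of all genes tested. The lists and their members were chosen with earlier results of these data known, so their counts are a description and no separate support. Besides Elf5 (5.55 ± 0.65, SE, limma adjusted p = 0.00193), the called members were Ehf, Gata3, Mecom, Tfcp2l1, Tfap2a, Foxa1 and Emx2. Ehf, another ETS factor, read 15.06 and 14.85 in the duct and 13.37, 14.20 and 12.94 in urothelium, and 7.50 to 10.44 elsewhere. Tfap2a, an AP-2 factor, read 12.28 and 12.41 against 10.26, 10.89 and 10.77 in urothelium and 7.78 to 9.74 in the other 6 arrays. Mecom, a zinc finger regulator, read 14.58 and 15.23 against 12.82, 12.90 and 14.62 in urothelium and 9.17 to 12.53 elsewhere. Ehf and Tfap2a stood highest in the duct with urothelium next, and for Mecom urothelium replicate 3 lay between the 2 duct arrays.
The remaining factors were shared with 1 other compartment. Gata3, which guides duct outgrowth, read 14.33 and 13.93 in the duct and 13.38, 14.65 and 12.71 in urothelium, so the 2 overlapped. Foxa1, a forkhead factor, read 13.06 and 13.41 in the duct but 15.31, 16.01 and 14.42 in urothelium and 6.03 to 6.08 in proximal tubule. Tfcp2l1, a regulator of collecting duct cell types, read 14.32 and 13.48 in the duct and 12.41, 13.53 and 12.50 in proximal tubule, with 7.34 to 8.27 in muscle. Emx2, a homeobox gene of the urogenital epithelium, read 12.31 and 12.73 in the duct and 12.28 to 12.41 in proximal tubule, which overlap, with 7.55 to 8.01 in muscle. For Emx2 and Tfcp2l1 muscle was thus lowest, and for Foxa1 proximal tubule. With the label batch block the 8 differences were 2.24 to 5.08 and their adjusted p 0.0984 to 0.352.

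Among 24 homeobox genes of the Hox clusters tested, 3 were called higher and 0 lower. Hoxd1 read 11.08 and 10.92 in the duct against 6.86 to 10.33 on the other 9 arrays, and Hoxd3 11.99 and 12.56 against 6.27 to 11.17. Both separated the duct from every other array. Hoxb5 read 11.28 and 11.05 in the duct, overlapping the 9.59, 11.27 and 10.50 of urothelium, and 6.10 to 6.34 in muscle. Hoxd8 (13.52 and 14.47 in the duct, 13.66, 14.18 and 13.76 in urothelium) was not called, with a difference of 1.86 ± 0.47 and adjusted p = 0.0645.

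Of the secreted signals, 4 of 40 tested genes were called higher and 2 lower, and 2 of 35 receptors were called each way. Wnt9b, the stalk signal that induces nephrons, read 13.38 and 12.21 in the duct. It read 8.54, 9.48 and 8.80 in proximal tubule, 8.03, 8.04 and 7.11 in muscle and 9.95, 7.73 and 10.33 in urothelium, and the difference was 4.13 ± 0.59 (SE, limma adjusted p = 0.00449). Shh, the hedgehog ligand, was bright in both epithelia of the urinary tract, at 15.39 and 14.93 in the duct and 13.39, 14.29 and 12.56 in urothelium, and ran from 6.05 to 10.19 elsewhere. Fgf9, a growth factor that sustains nephron progenitors, read 11.99 and 11.65 in the duct. It read 10.14, 10.19 and 10.94 in proximal tubule, 9.27, 10.22 and 9.17 in urothelium and 7.58, 7.46 and 6.07 in muscle. Its difference from the mean of the others was 2.81 ± 0.46 (adjusted p = 0.00796). Against proximal tubule alone it was 1.40 ± 0.54 and not called (limma adjusted p = 0.175). Npnt, a matrix ligand of integrins made by the ureteric bud, read 15.92 and 15.60 in the duct and 15.55, 15.89 and 14.52 in proximal tubule, so it was as bright in that tubule.
The 2 signals called lower were Bmp4 and Ntn1. Bmp4, a growth factor of the mesenchyme around the duct and ureter, read 9.08 and 8.76 in the duct. It read 11.66, 11.56 and 11.21 in proximal tubule, 12.60, 12.27 and 11.60 in muscle and 11.13, 9.71 and 10.41 in urothelium (difference -2.43 ± 0.41, adjusted p = 0.01). Ntn1, a netrin, read 7.34 and 7.81 against 8.82 to 10.43 on the other arrays. Both lay below all 9. Wnt7b, which the duct stalk sends to the medullary stroma, read 11.55 and 10.87 in the duct and 11.26, 11.69 and 11.08 in urothelium and was not called. With the block, the 6 called signals kept their signs, with adjusted p from 0.119 to 0.428.

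Gfra1, the GDNF co-receptor, was called higher, whereas Ret was not. Gfra1 read 13.92 and 13.003 in the duct, 9.27, 9.72 and 9.34 in proximal tubule, 8.57, 8.48 and 9.24 in muscle and 10.75, 10.86 and 12.79 in urothelium, for a difference of 3.57 ± 0.51 (SE, limma adjusted p = 0.00449). Ret read 11.18 and 12.54 in the duct, below and above the 12.28 of urothelium replicate 3, and 6.07 to 10.56 on the other 8 arrays (difference 3.35 ± 0.89, adjusted p = 0.0765). The list of tip and Ret signalling genes had 2 of 13 called, the other being the transcription factor gene Myb (12.65 and 13.18 in the duct, 9.43 to 11.92 elsewhere, read by a probe set that may match related transcripts). Wnt11, made at the bud tip, read 9.79 and 10.21 in the duct and 8.50 to 10.22 on the other arrays. Avpr2, the vasopressin receptor of principal cells, read 11.69 and 10.57 in the duct and at most 10.20, in urothelium replicate 3. Among receptors called lower, Fgfr3 read 9.93 and 10.95 in the duct and 13.78 to 14.54 in proximal tubule. It read 13.29, 12.44 and 11.05 in urothelium and 11.07, 11.70 and 11.11 in muscle, and was not called against muscle (-0.86 ± 0.60, limma adjusted p = 0.481). Mst1r read 6.51 and 7.22 against 9.33 to 10.05 in proximal tubule and muscle but 6.04, 6.66 and 7.74 in urothelium. With the block the adjusted p of these 5 called genes ran from 0.0872 to 0.504.

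Genes of principal cell transport were higher in 8 of 19 tested, and 0 were lower. The list's median difference was 2.26. The called members were Fxyd4, the sodium channel subunit Scnn1g, the potassium channels Kcnj10 and Kcnj16, the water channels Aqp3 and Aqp4, the receptor Avpr2, and Tmem117, a membrane protein. Aqp4 read 12.20 and 10.61 in the duct and 6.15 to 9.22 elsewhere, and Aqp3 12.22 and 11.97 against 11.67, 11.94 and 10.77 in urothelium and 8.08 to 9.90 in the remaining arrays. Both water channels of the basal side of the cell therefore lay above all 9 other arrays. Scnn1g read 12.93 and 12.33 in the duct and 12.56, 12.82 and 12.39 in urothelium, which overlap, against 6.13 to 9.19 elsewhere. Kcnj10 read 10.99 and 9.71 against at most 8.65, while Kcnj16 was as high in proximal tubule (12.74, 13.95 and 13.22) as in the duct (13.17 and 12.70).
The apical water channel Aqp2, the hallmark of the mature principal cell, was dim in the duct. It read 10.40 and 9.84, a rank of 7257 of 18193, against 7.93 to 9.53 on the other arrays, and was not called (difference 1.45 ± 0.41, SE, limma adjusted p = 0.101). The duct arrays nevertheless lay above the other 9. Hsd11b2, which shields the aldosterone receptor from glucocorticoids, read 12.44 and 12.26 against 8.43 to 11.63 (2.26 ± 0.60, adjusted p = 0.0768). Scnn1b read 11.10 and 10.35, with 10.77 in urothelium replicate 2 between them (1.60 ± 0.39, adjusted p = 0.0518). The aldosterone receptor Nr3c2 read 10.82 and 9.43 against 6.42 to 9.18. The sodium pump subunit Atp1b1 was bright in the duct (16.46 and 16.07) and in proximal tubule (16.26, 16.09 and 16.75) alike. With the block the 8 called genes had adjusted p from 0.082 to 0.379.

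Intercalated cell and acid-base genes were called in 1 of 12 tested, the ammonia transporter Rhcg. It read 10.61 and 9.34 in the duct and at most 8.50 elsewhere, in urothelium replicate 3 (difference 2.88 ± 0.53, SE, limma adjusted p = 0.0133; 3.22 and 0.189 with the block). Foxi1, the transcription factor that specifies intercalated cells, read 9.32 and 8.68 against 6.30 to 8.16, and was not called (1.85 ± 0.54, adjusted p = 0.106). The proton pump subunit Atp6v0d2 read 10.09 and 9.47 against 7.01 to 9.12 (1.68 ± 0.45, adjusted p = 0.0832). All 3 lay above the other 9 arrays at low signal. Slc4a1, a bicarbonate exchanger of these cells, read 9.71 and 9.32 within the range of the rest (7.90 to 10.02). Atp12a, a proton and potassium pump named after its values were seen, was called higher at 9.56 and 9.09 against 5.99 to 7.56. Atp12a and Foxi1 read below the array median on all 9 other arrays, so they passed the filter described below only through the duct arrays. Rhcg was above it on urothelium replicate 3 alone among those 9, so it too needed a duct array to pass.

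Retinoic acid genes were called in 2 of 16 tested, Aldh1a3 and the degrading enzyme Cyp26b1. The difference of Aldh1a3 was 6.13 ± 0.57 (SE, limma adjusted p = 0.000813), and 6.02 ± 0.82 (adjusted p = 0.082) with the block. Cyp26b1 read 10.92 and 10.32 in the duct against 10.11, 9.39 and 10.04 in proximal tubule, 9.02, 9.31 and 10.34 in urothelium and 7.18 to 7.48 in muscle. It therefore differed mainly from muscle. The related synthesis gene Aldh1a1 read 11.95 and 11.62 against 7.17 to 10.66 and was not called (2.32 ± 0.66, adjusted p = 0.099). Crabp2, a carrier of retinoic acid in cells, read 11.27 and 10.98 against 6.10 to 10.68 and was not called (1.79 ± 0.54, adjusted p = 0.125). Rbp4, the carrier of retinol in blood, read 8.18 and 7.85 in the duct and 8.37 to 10.13 on the other arrays, all higher, and was not called.

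Junction, adhesion and apical genes were called higher at counts of 4 of 29, 4 of 22 and 4 of 17 tested, and none of these lists had a member called lower. The tight junction members were Cldn8, Cldn7, Cldn3 and the polarity protein Pard6b. Cldn7 read 15.13 and 13.74 in the duct and 15.30, 13.91 and 14.30 in urothelium, and Cldn3 12.88 and 10.84 against 11.20, 11.12 and 12.11, so urothelium overlapped the duct for both. Pard6b read 13.28 and 12.48 against 12.54, 12.75 and 12.63 in proximal tubule. Its lowest values were those of muscle, at 7.26 to 7.76.
Of the adhesion genes, Epcam read 16.28 and 16.11 in the duct, 15.95, 14.97 and 15.08 in urothelium, 13.65, 14.01 and 14.20 in proximal tubule and 11.88, 9.52 and 9.86 in muscle. Cdh16 read 15.62 and 14.83 in the duct and 13.96, 15.13 and 14.82 in proximal tubule, and Cdh1, the general epithelial cadherin, 14.69 and 14.41 against 15.03, 15.77 and 14.38 in urothelium. Dsc2, a desmosomal cadherin, read 11.63 and 13.78 in the duct and 12.51, 13.12 and 12.17 in urothelium. Of the 4 only Epcam was higher in the duct than on each other array.
Of the apical genes, the mucin Muc1 read 12.55 and 11.51 in the duct and 6.08 to 9.05 elsewhere, and Mal2, a protein of apical transport, 13.64 and 13.80 against 11.79, 12.52 and 12.25 in urothelium and 6.01 to 9.66 in the rest. Its relative Mal read 14.75 and 14.51 in the duct, within reach of the 15.48, 16.06 and 14.42 of urothelium, as did Tspan8 at 14.68 and 14.66 against 15.46, 15.25 and 14.69. Muc1 and Mal2 thus separated the duct from all other arrays, while Mal and Tspan8 separated the 2 urinary epithelia from proximal tubule and muscle.

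Of 14 genes of epithelial splicing and trafficking, 3 were called higher and 0 lower. The splicing factor Esrp1 read 13.62 and 13.74 in the duct, 14.15, 13.92 and 13.18 in urothelium and 8.60 to 9.93 elsewhere. Myo5c, a motor of secretory vesicles, read 10.29 and 10.54 against at most 10.18, and Ap1m2, a sorting adaptor of epithelia, 12.75 and 11.79 against 12.69, 11.74 and 11.67 in urothelium. None of 13 channel-activating proteases and their inhibitors was called against the mean. In the comparison with muscle 6 of them were called higher in the duct, beside 4.91% of all genes tested. The inhibitor Spint2 read 16.08 and 15.74 in the duct and 10.30 to 12.02 in muscle (1.72 ± 0.46 against the mean, SE, limma adjusted p = 0.0813), and the protease St14 12.67 and 11.32 against 6.53 to 8.86 (1.64 ± 0.57, adjusted p = 0.194). Among 13 cystic kidney genes, Pkhd1 was called, at 12.88 and 12.44 in the duct, 12.71, 13.91 and 11.53 in proximal tubule and 5.84 to 6.94 in muscle.

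Of 8 calcium handling genes, 2 were called. Slc8a1, the sodium-calcium exchanger, read 15.73 and 15.38 in the duct, 14.19, 14.73 and 14.28 in muscle, 11.81, 12.53 and 13.17 in urothelium and 10.40 to 10.99 in proximal tubule. Calb1, the calcium-binding protein calbindin, read 14.81 and 15.22 in the duct, and in urothelium 14.35 in replicate 3 but 10.44 and 7.13 in the others. Trpv6, a calcium channel, read 9.55 and 8.94 and lay within the range of the other arrays. Of 12 hedgehog pathway genes, the ligand Shh and the co-receptor Cdon (12.70 and 13.13 against 9.20 to 12.27) were called. The hedgehog target genes Ptch1 (13.67 and 14.87) and Gli1 (8.23 and 7.97) were not called and read highest in muscle, at 14.76 to 16.27 and 9.45 to 10.64. None of 24 cell cycle genes was called and their median difference was -0.70. Mki67 read 14.18 and 14.79 in the duct and 14.42 to 15.77 elsewhere.

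**Figure D3:**
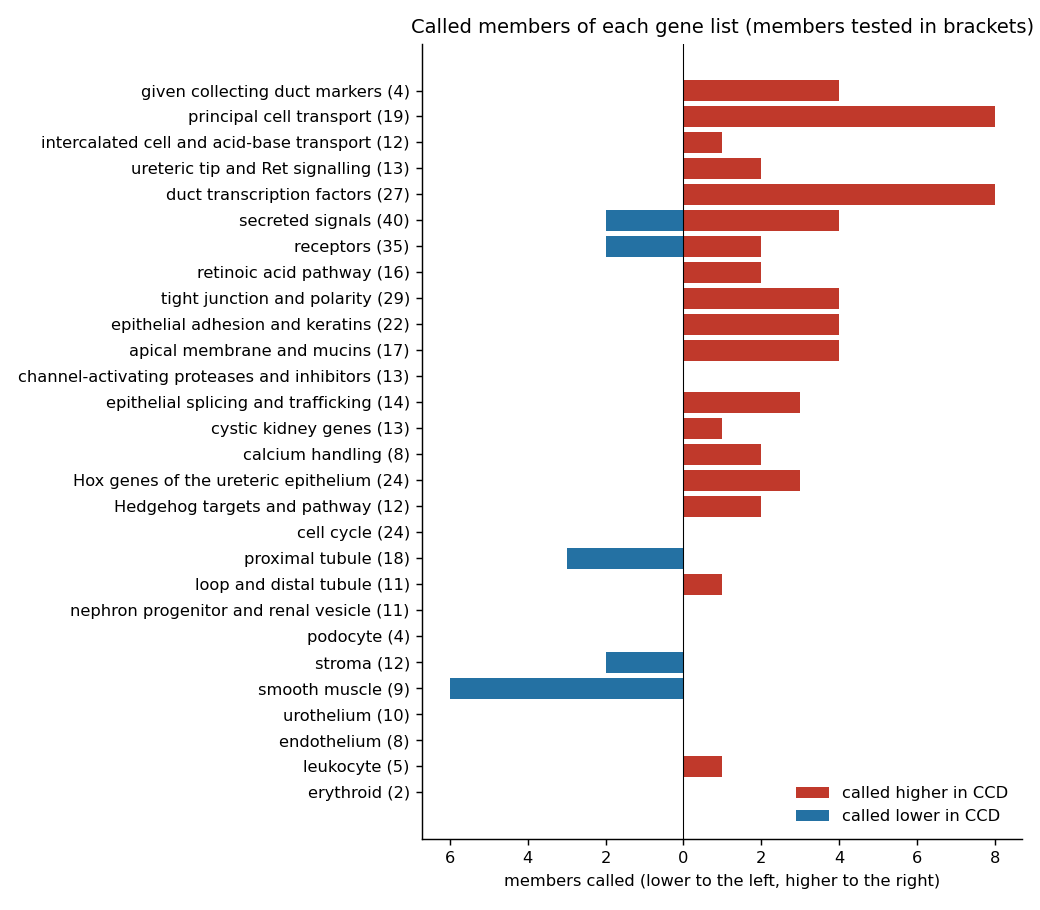
Number of tested members of each of 28 gene lists called higher (red, to the right) or lower (blue, to the left) in the duct against the mean of the other compartments, with members tested in brackets. Principal cell transport and duct transcription factors have 8 members called higher each, and smooth muscle has 6 called lower.

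Among the lists, smooth muscle had the most members called lower in the duct, 6 of 9 tested (median of the list -3.32). Proximal tubule followed with 3 of 18, and stroma had 2 of 12. Myl9, a myosin light chain, read 7.70 and 7.23 in the duct, 14.29, 14.10 and 14.36 in muscle, 11.76, 10.57 and 11.03 in urothelium and 6.89 to 8.87 in proximal tubule. The duct thus read like proximal tubule for this gene, and the same ordering held for the actins Acta2 (11.44 and 11.37 in the duct, 11.25 to 12.41 in proximal tubule, 16.94 to 17.63 in muscle), Actc1 (8.56 and 7.85, 7.38 to 8.74 and 15.57 to 15.84) and Actg2 (7.11 and 7.04, 6.17 to 7.60 and 14.43 to 14.62). Tbx18, a transcription factor of the ureteral mesenchyme, read 7.83 and 9.71 in the duct and 15.52 to 16.04 in muscle. For all of these muscle read highest and urothelium next.
Other genes were lower in the duct than in every other array. Gas6, a ligand of the Axl family of receptors, read 9.64 and 8.39 in the duct against 11.02, 11.79 and 11.65 in proximal tubule, 11.95, 12.56 and 12.76 in muscle and 12.89, 11.86 and 11.24 in urothelium. Tgm2, a transglutaminase, read 11.44 and 11.54 against 13.02 to 15.57, and Tubb6, a tubulin, 10.01 and 8.54 against 10.43 to 15.17. Abhd14a (9.07 and 9.87 against 10.86 to 13.32), Ccdc107 (10.23 and 9.55 against 11.04 to 13.65) and the phosphodiesterase Pde5a (10.12 and 11.08 against 11.67 to 15.85) also lay below all 9. Of these 6 genes, Tgm2, Abhd14a and Pde5a were read by probe sets that may match related transcripts. With the block, these 6 differed by -3.38 to -2.30 with adjusted p from 0.0872 to 0.313.

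Of 18 proximal tubule genes, all 18 were lower in the duct than in proximal tubule, in a comparison that called 795 of 13614 genes (5.84%), 298 higher (2.19%) and 497 lower (3.65%). Against the mean of all 3 compartments only Cubn, Slc22a6 and Aqp1 were called lower. Cubn, an endocytic receptor, read 7.98 and 9.50 in the duct and 13.80, 14.53 and 13.72 in proximal tubule. Lrp2, its partner, read 9.70 and 11.81 in the duct against 14.40, 14.96 and 15.21, with 12.29 in urothelium replicate 1. For both genes duct replicate 2 read higher than replicate 1, as for the summed proximal markers. The genes higher in the duct than in proximal tubule with the widest non-overlapping differences were Cldn8 (7.41 ± 0.72, SE, limma adjusted p = 0.000152), Foxa1 (7.18 ± 0.53), Aldh1a3 (7.14 ± 0.67), Shh (6.54 ± 0.93), Tspan8 (6.14 ± 0.83) and the kinase Frk (5.87 ± 0.66). With the block this comparison called 627 genes (4.61%), 250 higher (1.84%) and 377 lower (2.77%), and these 6 genes were called again with adjusted p from 0.000672 to 0.00398.

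Against smooth muscle 1126 genes were called (8.27%), 669 higher (4.91%) and 457 lower (3.36%), and 302 with the block (2.22%), 189 higher (1.39%) and 113 lower (0.83%). Dcdc2a, a protein of cilia and microtubules, differed most among the higher genes, at 15.01 and 15.20 in the duct against 6.10, 6.25 and 6.09 (8.96 ± 0.84, SE, limma adjusted p = 4.42e-05; 8.99 and 0.011 with the block). It was as bright in proximal tubule, at 14.47 to 15.67. Map3k21 (13.22 and 13.50 against 5.97 to 6.31) and Mal2 (13.64 and 13.80 against 6.01 to 6.86) followed the same pattern against muscle. Of the 193 genes higher than the mean of the others, 183 were also called higher than muscle, 127 higher than proximal tubule and 11 higher than urothelium. These comparisons share the duct arrays, and their counts are given side by side only.

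Urothelium was the compartment with the fewest genes called against the duct. Duct replicate 1 correlated more closely with each urothelium array (at least 0.852) than with any proximal tubule or muscle array (at most 0.841). Duct replicate 2 did so for urothelium replicates 1 and 3, at 0.887 and 0.909. Its 0.832 with urothelium replicate 2 was below its 0.847 with proximal tubule replicate 2. The comparison called 35 genes (0.257%), 13 higher in the duct (0.0955%) and 22 lower (0.162%), and 0 with the block. For 128 of the 193 genes called higher against the mean, urothelium was the highest of the other 3 compartments, and 110 were called against proximal tubule and muscle but not against urothelium. A missed call does not show that levels were alike. The genes lower in the duct than in urothelium included the uroplakins Upk3a and Upk1b, membrane proteins of the urothelial surface. Upk3a read 8.43 and 8.58 in the duct and 13.92, 13.24 and 12.36 in urothelium (-4.67 ± 0.60, SE, limma adjusted p = 0.0068), and Upk1b 8.76 and 8.88 against 14.26, 13.81 and 11.54. Sptssb, a subunit of the enzyme that starts sphingolipid synthesis, read 6.91 and 7.67 against 12.61, 13.41 and 12.34 (-5.50 ± 0.63, adjusted p = 0.00433). Also called lower were the keratin Krt19 (10.19 and 9.82 against 14.07, 14.22 and 12.77), the calcium-binding protein S100a6 (10.06 and 9.41 against 13.83, 15.54 and 13.57) and the immediate early gene Fos (6.89 and 6.38 against 11.41, 12.64 and 9.80). For each of these the groups did not overlap.

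In all, 7 genes were called higher in the duct than in each of the other 3 compartments (0.0514% of those tested) and 2 lower (0.0147%). Aldh1a3 led them, with differences of 4.33 ± 0.67 from urothelium (SE, limma adjusted p = 0.0175), 7.14 ± 0.67 from proximal tubule and 6.93 ± 0.67 from muscle. Tenm1, a teneurin, read 13.55 and 12.74 in the duct and 7.50, 7.55 and 7.78 in proximal tubule, 8.69, 7.66 and 8.06 in muscle and 7.41, 8.43 and 10.83 in urothelium. Btc, betacellulin, a ligand of the EGF receptor, read 13.67 and 14.04 against 9.62, 9.73 and 8.50, then 10.02, 9.64 and 8.81, then 10.96, 10.97 and 10.84 in the same order of compartments. These 2 and Aldh1a3 were bright in the duct, with ranks from 1020 to 1761.
The other 4 were dimmer. Rasgrf2, an exchange factor of Ras proteins, read 11.43 and 11.88 in the duct and 7.82 to 10.17 elsewhere, and Inmt, a methyltransferase, 11.24 and 11.07 against 8.36 to 9.31. Opcml, a cell adhesion protein of the immunoglobulin family, read 9.98 and 10.10 against 6.07 to 7.90, and Lrrtm1, a leucine-rich repeat membrane protein, 8.96 and 9.42 against 5.88 to 6.65. All 7 separated the duct from each of the other arrays. Opcml and Lrrtm1 read below the array median on all of those, so they passed the filter described below only through the duct arrays. Their separation is therefore a description and no separate support. The 2 genes lower in all 3 comparisons were Gas6 and Rpp21, a subunit of ribonuclease P that read 6.94 and 6.86 against 8.48 to 10.41.

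Urothelium replicate 3 weighed on these counts, so each was repeated without it, a choice made after the values were seen. Without that array 150 genes were called between duct and urothelium, 68 higher and 82 lower in the duct, and 25 genes were higher and 3 lower in the duct than in each other compartment. All 9 genes called with every array were among these 28. Among those added were the markers Elf5 (4.41 above urothelium, limma adjusted p = 0.00955) and Fxyd4 (3.14, adjusted p = 0.0111), Calb1 (6.23, adjusted p = 0.0171), Wnt9b (3.96, adjusted p = 0.0171), Gfra1 (2.66, adjusted p = 0.0223), Muc1 (4.99, adjusted p = 0.0237), Aqp4 (4.04, adjusted p = 0.0215) and Avpr2 (3.32, adjusted p = 0.0478). Rgn, a calcium-binding regulator, was another gene added, at 12.70 and 13.87 in the duct and 6.22, 5.94 and 10.98 in urothelium. For all of these added genes, replicate 3 was the urothelium array nearest the duct. Leaving it out widens their differences by that choice, so these p-values are a description and no separate support. Leaving out duct replicate 1 or duct replicate 2 gave 0 genes against urothelium, leaving out urothelium replicate 1 gave 7 and urothelium replicate 2 gave 6.

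**Figure D4:**
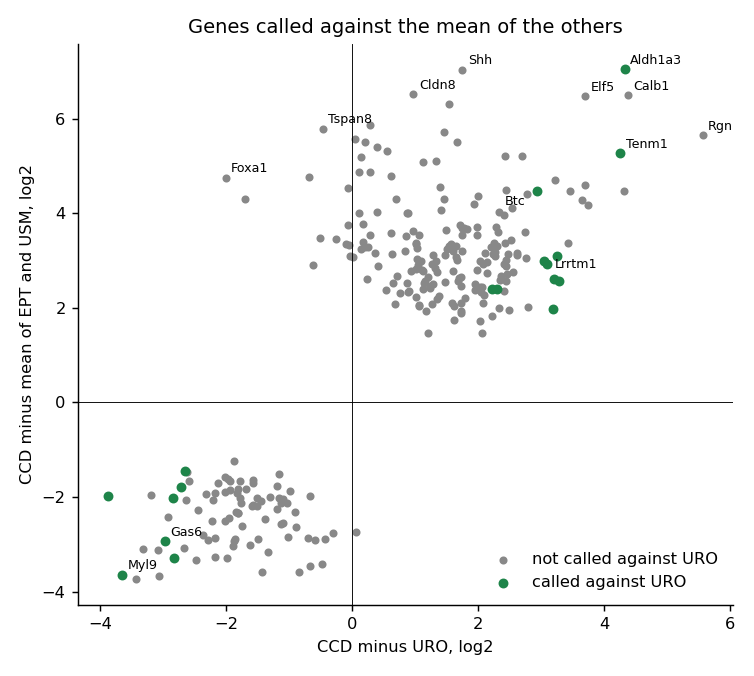
For the 278 genes called against the mean of the others, the log2 difference between duct and urothelium (horizontal axis) against that between duct and the mean of proximal tubule and muscle (vertical axis). Green points were also called against urothelium; Tspan8 and Foxa1 lie to the left of 0, since urothelium read higher than the duct, while Aldh1a3 and Tenm1 lie far to the right.

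Differences within a label batch come from the same arrays that chose the called genes, so their signs are a description. Of the 193 genes called higher, 185 were higher in duct replicate 1 than in proximal tubule replicate 1, 193 higher than in muscle replicate 2, and 180 were higher in duct replicate 2 than in the mean of proximal tubule replicates 2 and 3, with 178 higher in all 3. Of the 85 called lower, the counts were 74, 77, 69 and 56. Aldh1a3 differed by 6.88, 6.64 and 7.44 in these 3 comparisons, Elf5 by 6.49, 7.28 and 4.91, Fxyd4 by 5.41, 6.34 and 4.04 and Cldn8 by 8.15, 5.91 and 7.18. The duct and urothelium share no label batch, so within-batch values of that pair could not be had, and the block links them only through muscle and proximal tubule. With the block, fitted on the same arrays, all 193 higher and all 85 lower genes kept their sign, and the median of the higher genes was 2.58 in place of 2.59.

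**Figure D5:**
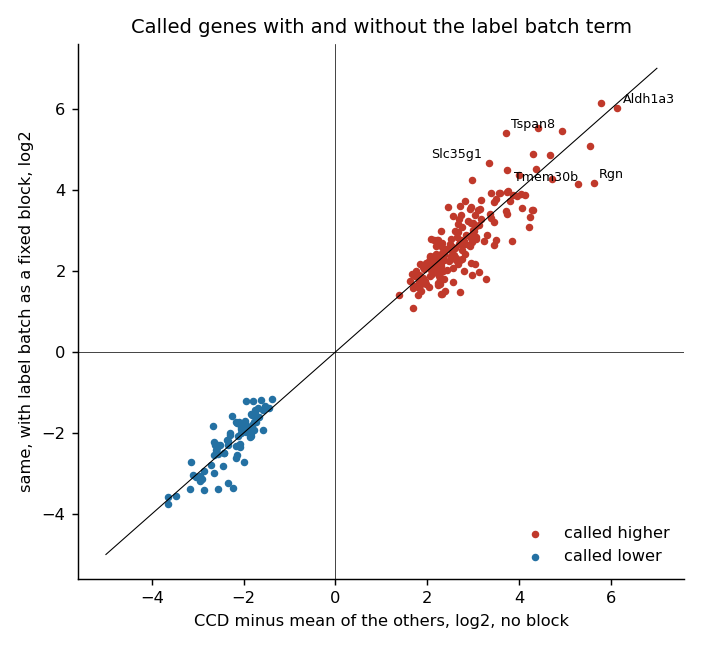
Log2 difference between the duct and the mean of the other compartments for the 278 called genes, without (horizontal axis) and with (vertical axis) label batch as a fixed block; the line marks equal values. All points keep their sign, and Tspan8, Slc35g1 and Tmem30b, the 3 genes still called, lie above the line.

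The 2 duct arrays differed from each other more than any pair of proximal tubule or muscle arrays, and within the range of urothelium pairs. The median absolute difference between the duct arrays was 0.63 log2. It was 0.47 to 0.61 for pairs of proximal tubule arrays, 0.50 to 0.58 for muscle and 0.51 to 0.65 for urothelium. More than 1 log2 separated them for 3769 genes (27.7%) and more than 2 for 531. Of the called genes, 33 of the 193 higher and 17 of the 85 lower differed by more than 1 between them. Among the genes far higher in replicate 2 were the fatty acid receptor Cd36 (5.89 and 10.68), the transcription factors Mef2c (7.57 and 12.26) and Prrx1 (6.80 and 11.36) of mesenchymal cells, and the granin Chgb (7.23 and 11.86). In replicate 1 the highest gaps were those of Plag1 (11.66 and 7.30), the laminin chain Lamc1 (13.54 and 9.41), Arf5 (11.08 and 7.36), Zfp57 (9.78 and 6.16) and Adh6b (9.99 and 6.40). None of these 9 genes was called against the mean of the others. The stromal genes Pdgfra (12.05 and 13.94) and Lum (9.33 and 11.66) were also higher in replicate 2, in the direction of the summed stromal signal.

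One gene of blood cells was called higher in the duct. Ptprc, the leukocyte antigen CD45, read 11.10 and 12.49 in the duct, 6.39, 6.65 and 9.63 in proximal tubule, 6.50, 7.43 and 6.02 in muscle and 8.85, 6.07 and 10.82 in urothelium (4.20 ± 1.00, SE, limma adjusted p = 0.0493; 3.09 and 0.64 with the block). The other 4 leukocyte genes tested were not called. Csf1r read 8.54 and 10.36 in the duct against 8.91 to 11.86, and Tyrobp 6.73 and 8.34 against 6.11 to 8.85, and C1qa and C1qb read below the array median in both. Pou3f3, a transcription factor of the loop of Henle and distal tubule, was the 1 gene called higher of 11 in that list, at 14.44 and 15.41 in the duct, 14.21, 14.39 and 13.83 in proximal tubule and 14.06, 13.54 and 14.00 in urothelium, and 7.78 to 9.14 in muscle. Slc12a1, the transporter that defines the loop, read 11.62 and 13.28 in the duct and 6.79 to 13.60 elsewhere. None of 11 nephron progenitor genes and none of 4 podocyte genes was called in either direction.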

How the data were processed

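Gene expression was measured on 11 one-colour Affymetrix arrays of 45101 probe sets. The deposited values are linear intensity signals made with GCOS, per the submitters' processing notes. The authors' scaling, which gives each array a mean of 1500 once its extreme 2% at either end is left out, was not changed. The sources used here give no detection calls.

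The scale is log2(signal + 55), where 55 is the rounded 20th percentile of all values. Probe sets with 1 gene symbol (34945) were kept if above their array's median in at least 2 arrays (24427). A gene high in the duct alone could thus pass through the 2 duct arrays. The probe set with the highest mean over the 11 arrays stood for a gene, which left 13614 genes, and ranks used all 18193 named genes. One limma fit (limma 3.58.1, R 4.3.3) gave the 4 compartments a mean each and shared 1 spread, with 7 residual and 6.38 prior degrees of freedom. Tests are two-sided with Benjamini-Hochberg adjustment over all genes tested.

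Named genes followed a rule: the given markers, the leading called genes of each comparison whose arrays do not overlap, up to 6 members per list by moderated t, the brightest called genes and the genes with the widest gap between the duct arrays. The members and lists were chosen with earlier results of these data known. The fits were tested on simulated data. Plots used Python 3.11.15 and matplotlib 3.10.9.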

Additional observations from a re-analysis of the deposited data

How the results depend on the processing

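The count of 278 genes against the mean of the others became 3 with label batch as a fixed block, 421 with a pseudocount of 190 (the 40th percentile), 173 with one of 12 (the 5th percentile) and 9 to 302 without single arrays (9 without duct replicate 1, 25 without duct replicate 2). The 795 against proximal tubule became 358 to 826 without single arrays (366 and 358 without duct replicates 1 and 2, 475 without proximal tubule replicate 2). The 1126 against muscle became 302 with the block and 520 to 1281 without single arrays (520 and 673 without duct replicates 1 and 2). The 35 against urothelium became 67 with trend and robust options, 58 with a filter at the 75th percentile, 0 with the block, 122 and 22 with the higher and lower pseudocount, 8 without label batch 2 and 0 to 150 without single arrays. The 9 genes called in all 3 pairs became 14, 27 and 3 with trend and robust options and the higher and lower pseudocount, 0 with the block, 5 with no filter, 1 without label batch 2 and 0 to 28 without single arrays. The counts under the remaining alternatives (quantile normalization, averaging the probe sets of a gene, leaving out x, s and a probe sets, a random block) stayed within 1.5 times.

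Susd3, lower than proximal tubule with all arrays, turned to 0.11 with the pseudocount of 12 and to 0.08 to 0.18 without single proximal tubule arrays (range over all single arrays -6.43 to 0.18), and against the mean to 0.51 and 0.42 to 0.46 (range -2.78 to 0.46), because another of its probe sets was then the brightest. Of 145 called values of named genes, 112 lost the call with the fixed block. Of the 137 that could be set without a duct array, 101 lost it without replicate 1 and 91 without replicate 2. The other alternatives ended 0 to 32 calls. The median SE of all genes was 0.45 without and 0.58 with the block. No paired analysis was possible because replicate numbers follow accession order and pair no samples. Label batch, which does tie arrays across compartments, is the block above. The number of arrays, 2 of duct, limits the precision.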
